A study of Homo sapiens with 6 samples.

Results

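The 14-3-3 proteins form a family of small adaptor proteins, and the 6 genes described here are YWHAB (beta), YWHAE (epsilon), YWHAG (gamma), YWHAH (eta), YWHAQ (theta) and YWHAZ (zeta). They were chosen by symbol, and all 6 were found among the 20979 symbols listed in at least 1 of 6 libraries. The family was proposed with results of these same libraries in view, so the members' levels and differences are given as a description, without a test of their own. The libraries came from A172 cells, a human glioblastoma line, transfected by lipid reagent and fall into 3 groups of 2 libraries: one received a control microRNA (control), the second the miR-324-5p duplex (called the 5p duplex here) and the last the miR-324-3p.1 duplex (the 3p.1 duplex). Polyadenylated RNA was taken after 1 day. No genotype differed between the groups, and all cells went through the same transfection, so an untransfected level was not part of the comparison. Nothing in the labels says that the 2 libraries of a group came from separate cultures, so p-values and SDs measure the spread between these libraries, which may be technical.

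14-3-3 proteins work as dimers. They bind phosphorylated serine or threonine motifs on many client proteins and thereby change where the client sits in the cell, which partners it meets or whether it stays active. Protein kinases such as AKT and LATS write the motifs, and phosphatases remove them. The family is abundant in brain. A microRNA acts on messenger RNAs mainly through its seed, the bases near its 5′ end, which pair with matching sites in the 3′UTR of a target.

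The labels name the duplexes after the arms of the MIR324 hairpin. The RefSeq sequences (GRCh38.p14) of the hairpin and of both mature arms are used here to define sites. They are shown because every site named further on is the complement of one of these seeds, which are in capitals (bases 2 to 8). Since no label states which bases the 3p.1 strand begins with, the search covered 3 possible starts on that arm, at bases 50 (the RefSeq mature form), 51 and 53 of the hairpin.
miR-324-5p: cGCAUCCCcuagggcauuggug
3p arm from base 50: cCCACUGCcccaggugcugcugg
3p arm from base 51: cCACUGCCccaggugcugcugg
3p arm from base 53: aCUGCCCCaggugcugcugg

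A 7mer-m8 site is the full complement of a seed. For miR-324-5p it reads GGGATGC. An 8mer adds an A after it (GGGATGCA), a 7mer-A1 keeps that A and lacks the first base (GGATGCA), and a 6mer is the shared core GGATGC. For the 3p arm, the 7mer-m8 word of the start at base 50 is GCAGTGG. The start at base 51 gives the word GGCAGTG in its place. For the start at base 53 the word becomes GGGGCAG. These words can overlap where a longer run of the arm is matched. Words were sought on the transcript strand of the longest 3′UTR that GENCODE 29 (GRCh38) annotates for each gene. Of 11743 tested genes with such a 3′UTR, 2.77% had an 8mer for miR-324-5p as their longest match, 6.03% a 7mer-m8 and 5.67% a 7mer-A1, and 14.5% had any of the 3.

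Of the 6 family genes, 2 carried a 7mer or 8mer for miR-324-5p, and neither was YWHAG, the member with the lowest level relative to control in the 5p duplex libraries. The sequences below are shown because they set these matches side by side, each in a window of 30 bases of the transcript with the match in capitals, and with VDAC1, the gene of a mitochondrial outer membrane channel, as a strongly lowered gene for reference.
YWHAQ, 7mer-m8: acacttgtctaGGGATGCctggaagtgtat
YWHAG, 6mer: ggcagcgcacgcGGATGCtactactgcagt
VDAC1, 8mer: gttgtatgtctGGGATGCAagtattgctaa

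The YWHAQ match lies at chr2:9584111-9584117 (minus strand, GRCh38), in the 3′UTR of both coding transcripts of the gene, 1169 bases after the stop codon and 139 bases before the annotated end. YWHAZ, on chromosome 8, held an 8mer 3944 bases after the stop codon, but only in 1 of its 12 coding transcripts in the basic annotation, the one with the longest 3′UTR (4168 bases). Its other 3′UTRs are as short as 51 bases. Which of them A172 cells use cannot be told from these gene-level values. The single annotated YWHAG transcript (chr7:76326794-76359031, minus strand) has a 3′UTR of 2783 bases with no 7mer or 8mer for miR-324-5p, and none in its coding region or 5′UTR. Its 6mer lies at chr7:76329544-76329549, 28 bases after the stop codon. A 6mer with no longer match was present in 10.3% of tested genes. YWHAB (2 coding transcripts), YWHAE (4) and YWHAH (2) had no 7mer or 8mer in any coding transcript, and not even the 6mer in their longest 3′UTR.

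The 60 bases around the YWHAQ match were 60% A or U (T in the annotation), and those around the YWHAZ match 63.3%. For the 8mer of VDAC1 the share was 68.3%. The median over 2078 miR-324-5p matches in tested genes was 51.7%, with quartiles at 42.2% and 61.7%.

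Matches to the 3p arm were spread differently. YWHAG held a GGGGCAG 7mer-m8 (chr7:76327666-76327672), which is the word of the start at base 53, and a 7mer-A1 of the start at base 51 (chr7:76326964-76326970). YWHAB held a GCAGTGG 7mer-m8 (chr20:44908008-44908014), the word of the RefSeq form. These matches are shown because both genes are compared between the 3p.1 duplex and control further on.
YWHAG, base 53 start: ggaggggggggGGGGCAGggtaggtggggc
YWHAB, base 50 start: gcgtgaacactGCAGTGGggagaattgaga
YWHAZ carried matches to all 3 starts, and YWHAE, YWHAH and YWHAQ to none. Such matches are common: 31.9%, 30.5% and 27.8% of tested genes held a 7mer or 8mer for the starts at bases 50, 51 and 53.

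**Figure D1:**
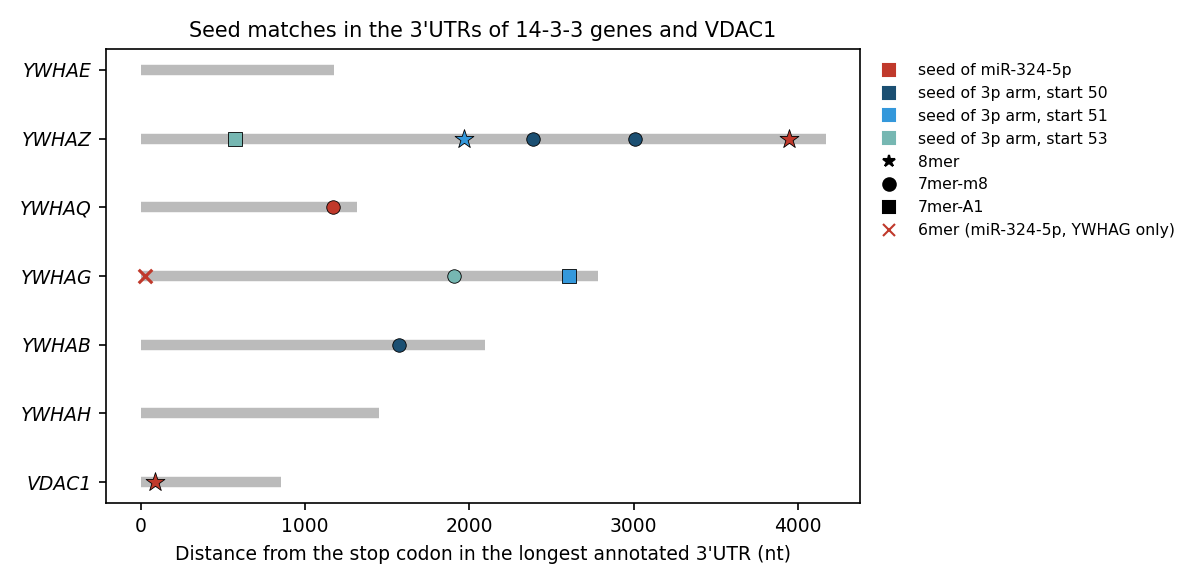
Seed matches along the longest annotated 3′UTR (grey bars, distance from the stop codon in nucleotides) of the 6 genes and VDAC1, coloured by the seed searched and shaped by the class of match. YWHAG has a miR-324-5p 6mer 28 bases after the stop codon, while the 7mer-m8 of YWHAQ and the 8mer of YWHAZ lie towards the end of their 3′UTRs.

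All 6 members passed the minimum of a mean of 1 TPM over the libraries, as did 13400 of the 20979 symbols. TPM is a share of transcripts scaled by transcript length, so levels may be set side by side between genes. The 6 genes are among the abundant messages of these cells. By mean TPM over the 6 libraries YWHAE ranked 106 of all symbols (1291 TPM), YWHAZ 125 (1145 TPM), YWHAQ 128 (1109 TPM), YWHAG 341 (437 TPM), YWHAB 517 (311 TPM) and YWHAH 754 (227 TPM). SFN, the gene of 14-3-3 sigma, which is known as an epithelial and p53-regulated member, was far lower at 37.0 TPM (rank 4648). YWHAE stood above YWHAZ in 6 of 6 libraries, although their ranges over libraries overlapped, and YWHAZ stood above YWHAQ in 5 of 6, again with overlapping ranges. YWHAQ and YWHAG were apart in range, as were YWHAB and YWHAH, and YWHAH and SFN. YWHAG stood above YWHAB in 6 of 6 libraries, with ranges that overlapped because YWHAG was lower in the 5p duplex libraries.

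Of 9 glial and glioblastoma markers 6 reached a mean of 1 TPM, with VIM at 4788 to 5910 TPM and CD44, which is not specific to glia, at 708 to 929 TPM. NES was at 90.9 to 133 TPM and CHI3L1 at 1.91 to 2.91 TPM. OLIG2 was at 2.75 to 4.98 TPM and SOX2 at 1.75 to 3.29 TPM, GFAP was at or below 0.25 TPM and TNC at or below 0.46 TPM, and S100B was not listed. The summed level of the 9 markers ran from 5706 to 6783 TPM, most of it VIM, with a median over the 8 listed of 2.64 to 3.95 TPM. The glial label thus rests on few of them, chiefly VIM, CD44 and NES. Of the 5 epithelial, 9 blood and endothelial and 5 neuronal markers, 2, 3 and 1 reached 1 TPM, with sums of 3.57 to 5.02, 9.16 to 11.5 and 10.8 to 12.6 TPM. PTPRC (5.52 to 7.48 TPM) and SYT1 (10.1 to 12.1 TPM) stood above OLIG2 and SOX2 but below NES, and CD3E and HBB were among those not listed. Interferon response genes differed between the control libraries, with a median over 16 genes of 71.5 and 228 TPM there and 8.87 to 13.2 TPM in the 4 duplex libraries. Their part in the differences below was not tested. In bulk RNA, fewer cells that express a gene and less of its RNA per cell cannot be told apart.

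YWHAG encodes 14-3-3 gamma, which is known to bind the p53 regulator MDM4 and is abundant in neurons and muscle. The control libraries held 492 and 505 TPM, those of the 5p duplex 314 and 304 TPM, and those of the 3p.1 duplex 511 and 493 TPM. Both 5p duplex libraries were lower than all 4 others, and control and 3p.1 duplex libraries overlapped. The group means were 499 ± 9.22 TPM in control, 309 ± 7.45 TPM with the 5p duplex and 502 ± 12.1 TPM with the 3p.1 duplex (SD, n = 2 each). The 5p duplex mean was 62.0% of control and 61.6% of the 3p.1 duplex mean. On the log2(TPM + 1) scale, which is used for all differences below, YWHAG differed by -0.69 (SE 0.0793) between 5p duplex and control, by 0.0087 (SE 0.0793) between 3p.1 duplex and control, and by -0.70 (SE 0.0793) between the duplexes. The comparisons share libraries, so they are not independent of each other.

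In the limma fit over all 13400 genes, a gene was called when its Benjamini-Hochberg adjusted p was under 0.05. YWHAG was the 1 member of 6 called lower with the 5p duplex against control, where 0.425% of all genes were called lower, and 0 were called higher, where 0.0373% of all genes were. It was also the 1 member called lower against the 3p.1 duplex, where 0.351% of all genes were, and 0 members were called higher, where 0.0821% were. With the 3p.1 duplex against control, 0 of 6 members were called by limma, where 0.0149% of all genes were called (0.00746% lower and 0.00746% higher), and 0 members lay under an unadjusted p of 0.05, where 6.86% of all genes did. Between 5p duplex and control 2 members did, YWHAG and YWHAB, where 9.16% of all genes did, and between the duplexes 1 member did, YWHAG, where 9.34% did. These calls of YWHAG rest on the full set of libraries: without any 1 of the 6 libraries the difference from control ran from -0.71 to -0.66 and was not called in any of the 6 fits, and that from the 3p.1 duplex ran from -0.72 to -0.67, also uncalled. Over all 14 alternative settings it was called against control in 4 and against the 3p.1 duplex in 5. Neither scaling changed the direction (-0.69 with quantile normalization and -0.65 with upper-quartile scaling, against control), though with the latter the call against control was lost.

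The size of the YWHAG difference was moderate. For comparison, VDAC1 had a mean of 579 ± 25.1 TPM in the controls, 154 ± 7.13 TPM after the 5p duplex and 582 ± 32.2 TPM after the other (SD, n = 2), so that its 5p duplex mean was 26.6% of control. YWHAG ranked 291 from the lowest of 13400 genes by its 5p duplex difference, and 25 from the lowest among the 1855 genes whose mean reached 100 TPM. Replicates of YWHAG lay close together, with a pooled SD within groups of 0.0322 (log2), where the median over those 1855 genes was 0.107.

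Among the 1214 genes whose longest match to miR-324-5p was the 6mer, YWHAG ranked 24 from the lowest, and the median difference of that class was -0.0545, against -0.0203 for the 8830 genes without the 6mer. Of the 56 genes called lower with the 5p duplex that have an annotated 3′UTR, 22 (39.3%) held no 7mer or 8mer, and YWHAG is 1 of them. Lack of such a match was more common over all tested genes with a 3′UTR: 10044 of 11743 held none, and 14.5% held at least 1.

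**Figure D2:**
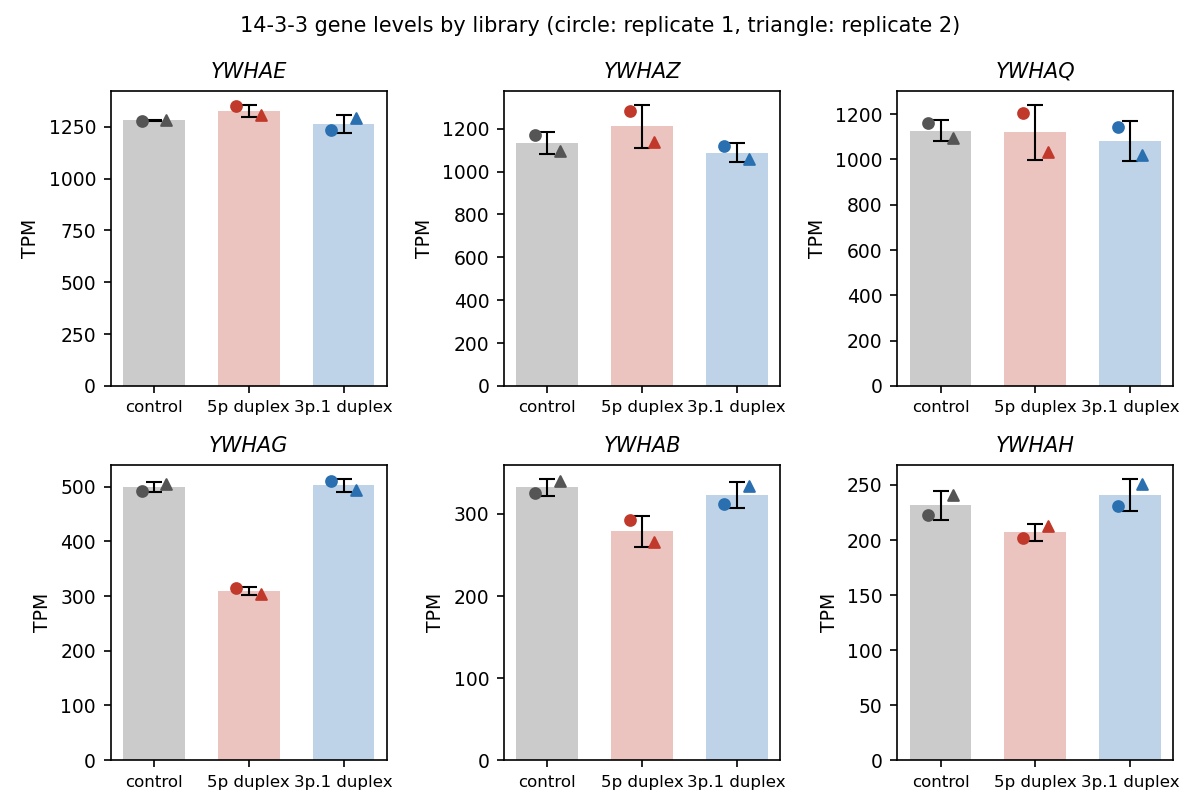
TPM of each 14-3-3 gene by group, with bars for the mean of 2 libraries, error bars for the SD and a point for each library. The YWHAG bar is at 309 TPM with the 5p duplex and at 499 and 502 TPM in the other groups, while the groups of YWHAQ overlap.

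YWHAB, the beta form, and YWHAH, the eta form, were the other members whose 5p duplex libraries both lay below both controls. For YWHAB the controls read 325 and 339.8 TPM, the 5p duplex libraries 292 and 265 TPM, and the 3p.1 duplex libraries 312 and 334 TPM. Its 5p duplex libraries were the lowest 2 of the 6, at a mean 83.8% of control. The difference from control was -0.26 (SE 0.0909), and that from the 3p.1 duplex -0.21 (SE 0.0909). Neither was called over all genes.

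For YWHAH the controls read 222 and 241 TPM, the 5p duplex libraries 202 and 213 TPM, and the 3p.1 duplex libraries 231 and 251 TPM. Again the 5p duplex libraries were the lowest 2, at a mean 89.5% of control. The differences were -0.16 (SE 0.0914) from control and -0.22 (SE 0.0914) from the 3p.1 duplex, and neither was called. The first ran from -0.22 to -0.10 without any 1 library. In all, 3 of 6 members lay below control without overlap, where 22.1% of all genes did, and 1 lay above, where 12.7% did. The 4 members without overlap compare with 34.8% of all genes. Neither YWHAB nor YWHAH carries a match to miR-324-5p, as given above.

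YWHAE, the epsilon form, had the highest mean level of the 6. It was at 1279.9 and 1283 TPM in the controls, 1348 and 1305 TPM in the 5p duplex libraries, and 1233 and 1294 TPM in the 3p.1 duplex libraries. The 5p duplex libraries were the highest 2, by a small margin: the mean was 103.5% of control, a difference of 0.0499 (SE 0.0844) that is smaller than its standard error and ran from 0.0266 to 0.0733 without any 1 library.

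YWHAZ, the zeta form, is a common reference gene in expression studies. The controls read 1171 and 1097 TPM, the 5p duplex libraries 1283 and 1139 TPM, and the 3p.1 duplex libraries 1119.5 and 1057 TPM. Control and 5p duplex libraries overlapped. The 5p duplex differed from control by 0.0928 (SE 0.1) and from the 3p.1 duplex by 0.15 (SE 0.1), the second without overlap. Without 5p duplex replicate 1 these were 0.0071 and 0.0668, and without 5p duplex replicate 2 they were 0.18 and 0.24, so their size rests on single libraries. Among the 325 genes with an 8mer for miR-324-5p, whose median difference was -0.139, YWHAZ ranked 295 from the lowest.

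YWHAQ, the theta form, was at 1159 and 1093 TPM in the controls, 1206 and 1032 TPM in the 5p duplex libraries, and 1145 and 1019 TPM in the 3p.1 duplex libraries. All 3 groups overlapped, and the replicates of a group differed more than the group means. The 5p duplex differed from control by -0.0128 (SE 0.115), a value whose sign turned in 3 of 14 alternative settings. Among the 708 genes with a 7mer-m8 as their longest match (median -0.0898), YWHAQ ranked 469 from the lowest. Against control, both members with a 7mer or 8mer thus differed by less than their standard errors, and YWHAG, whose longest match is the 6mer, had the lowest value of the 6.

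**Figure D3:**
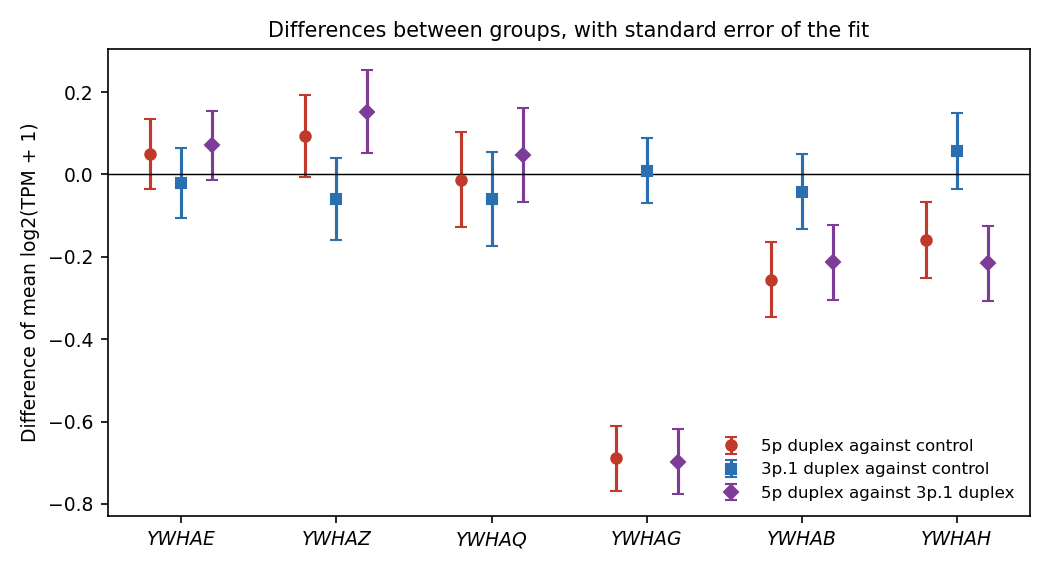
Differences of mean log2(TPM + 1) between groups for each member, with the standard error of the fit as bars. YWHAG lies at -0.69 and -0.70 in both comparisons that hold the 5p duplex and at 0.0087 for 3p.1 duplex against control.

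With the 3p.1 duplex against control, all 6 members overlapped between the groups, where 36.3% of all genes did not overlap. The member differences ran from -0.0597 (YWHAZ) to 0.0569 (YWHAH), with a median of -0.0315 beside -0.0334 for all genes. The member median moved with single libraries, to -0.0149 without either control, -0.0049 without 3p.1 duplex replicate 1 and -0.0113 without replicate 2. The median of all genes was -0.0561 and -0.0207 without control replicates 1 and 2. It was -0.0246 and -0.0434 without 3p.1 duplex replicates 1 and 2. YWHAG and YWHAB, which hold 7mer-m8 words of the 3p arm, differed by 0.0087 and -0.0422 (SE 0.0793 and 0.0909). YWHAZ, whose longest 3′UTR holds matches to all 3 starts, differed by -0.0597 (SE 0.1). YWHAE, YWHAH and YWHAQ, without such a match, differed by -0.0207, 0.0569 and -0.0596 (SE 0.0844, 0.0914 and 0.115). Against control, the 5p duplex differences had a median of -0.0861 over the 6 members, beside -0.0304 for all genes, and ran from -0.69 to 0.0928. The member median was -0.0564 without 5p duplex replicate 2, beside -0.0361 for all genes. With upper-quartile scaling it was -0.0482, beside 0.0044 for all genes. Between the duplexes, 3 members were lower and 2 higher with the 5p duplex without overlap, where 19.4% and 21% of all genes were and 40.4% did not overlap in either direction.

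The summed 14-3-3 message was 4650 and 4559 TPM in the controls, 4646 and 4258 TPM in the 5p duplex libraries, and 4551 and 4448 TPM in the 3p.1 duplex libraries. The 5p duplex libraries overlapped both other groups. Both 3p.1 duplex libraries lay below both controls, but by a narrow margin (4551 against 4559 TPM for the nearest pair). Of all genes, 24.1% lay lower without overlap in that comparison. The 6 genes together made 4605 ± 64.3 TPM in control, 4452 ± 274 TPM with the 5p duplex and 4499.7 ± 73 TPM with the 3p.1 duplex (SD, n = 2). The make-up of the sum differed most in its YWHAG part, but not only there. YWHAG gave 10.6% and 11.1% of the sum in the controls, 6.77% and 7.14% in the 5p duplex libraries, and 11.2% and 11.1% in the 3p.1 duplex libraries. YWHAZ gave 25.2% and 24.1%, 27.6% and 26.8%, and 24.6% and 23.8% in the same order. The shares sum to the whole in each library, so a lower share of 1 gene raises the others. The ratio of YWHAG to YWHAB was 1.5 ± 0.0185 in control, 1.11 ± 0.049 with the 5p duplex and 1.56 ± 0.111 with the 3p.1 duplex (SD, n = 2).

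**Figure D4:**
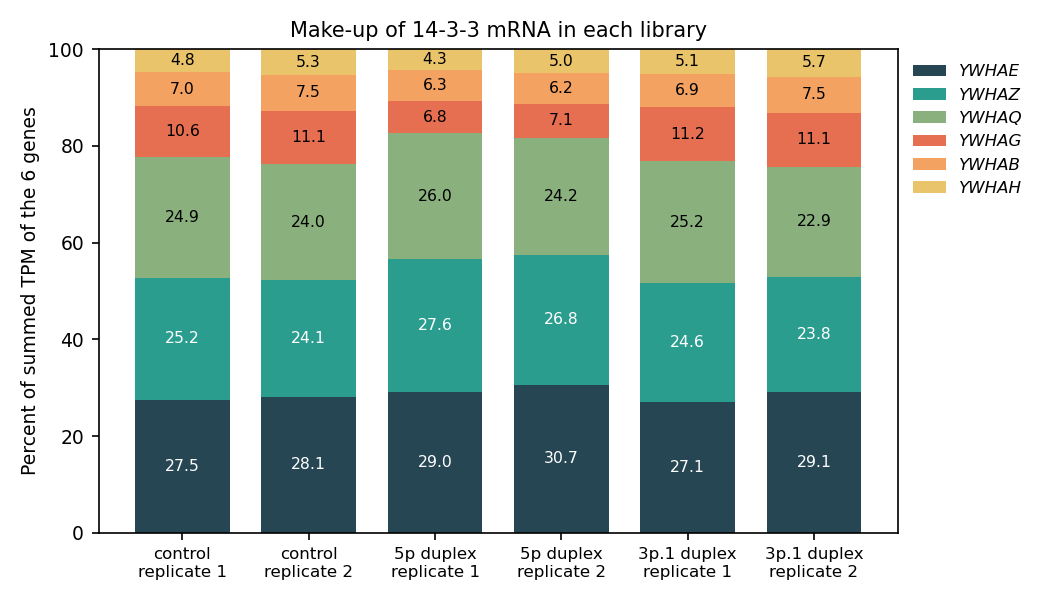
Percent of the summed TPM of the 6 genes that each gene gives, 1 bar per library. The YWHAG part is 6.77% and 7.14% in the 5p duplex libraries and between 10.6% and 11.2% in the 4 others.

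SFN, outside the 6 genes, was at 35.7 and 31.9 TPM in the controls, 41.0 and 48.5 TPM in the 5p duplex libraries, and 33.9 and 31.1 TPM in the 3p.1 duplex libraries. Its 5p duplex libraries were the highest 2, with a difference from control of 0.39 (SE 0.12, limma adjusted p = 0.351) that was not called. Its 3′UTR of 498 bases holds no 7mer or 8mer for miR-324-5p.

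By a fixed rule, the genes whose log2 levels over the 6 libraries were most like those of YWHAG, the member with the widest spread of group means, were named from the 8982 genes whose mean reached 10 TPM. Those described here are VDAC1 (Pearson r 0.998), WASF2 (0.997), DNAJC11 (0.997) and GPD2 (0.996). The 6 points share their libraries, and in each gene the 5p duplex libraries lie below the 4 others. WASF2, an actin regulator, had a mean of 52.1 ± 4.0 TPM in the controls, 21.2 ± 0.417 TPM after the 5p duplex and 52.3 ± 0.679 TPM after the other (SD, n = 2), a difference of -1.26 from control (SE 0.0948, limma adjusted p = 0.0135). Unlike YWHAG, VDAC1 and DNAJC11 hold an 8mer for miR-324-5p in their longest 3′UTR, and WASF2 and GPD2 a 7mer-m8. The word is in 3 of 3 coding transcripts of VDAC1, but in 1 of 2 of DNAJC11 and of WASF2 and 1 of 5 of GPD2.

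The genes around the family were read from lists of clients, kinases and phosphatases drawn up by known function. Of 45 clients, proteins that 14-3-3 is known to bind, 44 were tested. By limma 0 were called with the 5p duplex against control, where 0.463% of all genes were called, and 6 of 44 lay under an unadjusted p of 0.05, where 9.16% of all genes did. FOXO3, a transcription factor that 14-3-3 keeps in the cytoplasm, was at 15.7 and 18.4 TPM in the controls, 8.87 and 9.11 TPM in the 5p duplex libraries, and 14.7 and 15.8 TPM in the 3p.1 duplex libraries. Both 5p duplex libraries were the lowest, with a difference from control of -0.85 (SE 0.119, limma adjusted p = 0.0586), just above the threshold, and FOXO3 holds an 8mer for miR-324-5p. Over the 14 alternatives its adjusted p ran from 0.0131 to 0.316, and it was called with a minimum of 5 TPM (0.0471) and with a term for replicate number (0.0131).

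Other clients with a small adjusted p were further from the threshold, though WEE1 too was called with a term for replicate number. CRTC2, a coactivator of CREB, had a difference of -0.54 (25.1 ± 1.39 against 37.2 ± 6.38 TPM, SD, n = 2, limma adjusted p = 0.232). WEE1, the kinase that restrains mitosis, had -0.46 (52.9 ± 6.92 against 72.9 ± 7.14 TPM, n = 2, limma adjusted p = 0.371). Neither of these holds a 7mer or 8mer for miR-324-5p. Over the list the median was -0.106, beside -0.0304 for all genes, and 32 of 44 (72.7%) lay below 0, beside 57.3% of all genes. With quantile normalization 28 of 44 did, beside 43.0% of all genes. Without control replicate 2 the list median was -0.0582, beside -0.0159 for all genes.

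Clients showed as few calls in the other comparisons. By limma 0 of 44 were called with the 3p.1 duplex against control, where 0.0149% of all genes were called. Of the 44, 1 lay under an unadjusted p of 0.05, where 6.86% of all genes did. There RIN1, a RAS effector, had the smallest adjusted p, with a difference of -0.66 (SE 0.158, limma adjusted p = 0.448). Between the duplexes 0 of 44 were called by limma (7 under an unadjusted p of 0.05, where 9.34% of all genes were, and 0.433% of all genes called), with FOXO3 at -0.70 (limma adjusted p = 0.121, or 0.0239 with a term for replicate number) and PARD3, a polarity protein, at -0.32 (limma adjusted p = 0.343).

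Of 32 kinases that write 14-3-3 motifs, 29 were tested, and by limma 0 were called in any of the 3 comparisons, with 0 under an unadjusted p of 0.05. Of all genes, 0.463% were called with the 5p duplex, 0.0149% with the 3p.1 duplex and 0.433% between the duplexes. In the same order 9.16%, 6.86% and 9.34% lay under an unadjusted p of 0.05. Their median difference with the 5p duplex was -0.0249, beside -0.0304 for all genes, with 15 of 29 below 0, beside 57.3% of all genes. The list median was -0.0795 without control replicate 2, with 19 of 29 below 0, beside -0.0159 and 53.1% for all genes. It turned to 0.0028 with quantile normalization and to 0.0127 with upper-quartile scaling, where the median of all genes was 0.0262 and 0.0044. Without 5p duplex replicate 2 it was 0.0046, beside -0.0361 for all genes. The smallest adjusted p was that of PRKD1, a protein kinase D (-0.28, SE 0.128, limma adjusted p = 0.594), followed by STK11, the LKB1 kinase (-0.28, SE 0.133, limma adjusted p = 0.603). With the 3p.1 duplex it was that of DAPK1, a death-associated kinase (-0.35, limma adjusted p = 0.728), and between the duplexes that of CHEK1, the checkpoint kinase (-0.24, limma adjusted p = 0.542).

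Of 11 genes of phosphatases that act on 14-3-3 clients, subunits and the scaffold SHOC2 included, by limma 0 were called in any comparison. Of all genes, 0.463% were called with the 5p duplex, 0.0149% with the 3p.1 duplex and 0.433% between the duplexes. Of the 11, 1 lay under an unadjusted p of 0.05, PPP3CB between the duplexes (0.22, SE 0.0891, limma adjusted p = 0.533). Of all genes, 9.34% did so there, 9.16% with the 5p duplex and 6.86% with the 3p.1 duplex. With the 5p duplex against control all 11 differences were positive, from 0.0264 to 0.181, where 57.3% of all genes lay below 0. Their median was 0.0776, beside -0.0304 for all genes. PPP3CB, a catalytic subunit of calcineurin, had the smallest adjusted p (0.13, SE 0.0891, limma adjusted p = 0.754). Both scalings left 11 of 11 above 0, where 43.0% (quantile) and 48.9% (upper quartile) of all genes lay below 0. Without control replicate 2 or 5p duplex replicate 1, 7 of 11 were above 0 (medians 0.0213 and 0.025), where 53.1% and 53.7% of all genes lay below 0. Without control replicate 1 or 5p duplex replicate 2 it was 10 and 9, where 60.5% and 56.7% of all genes lay below 0.

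**Figure D5:**
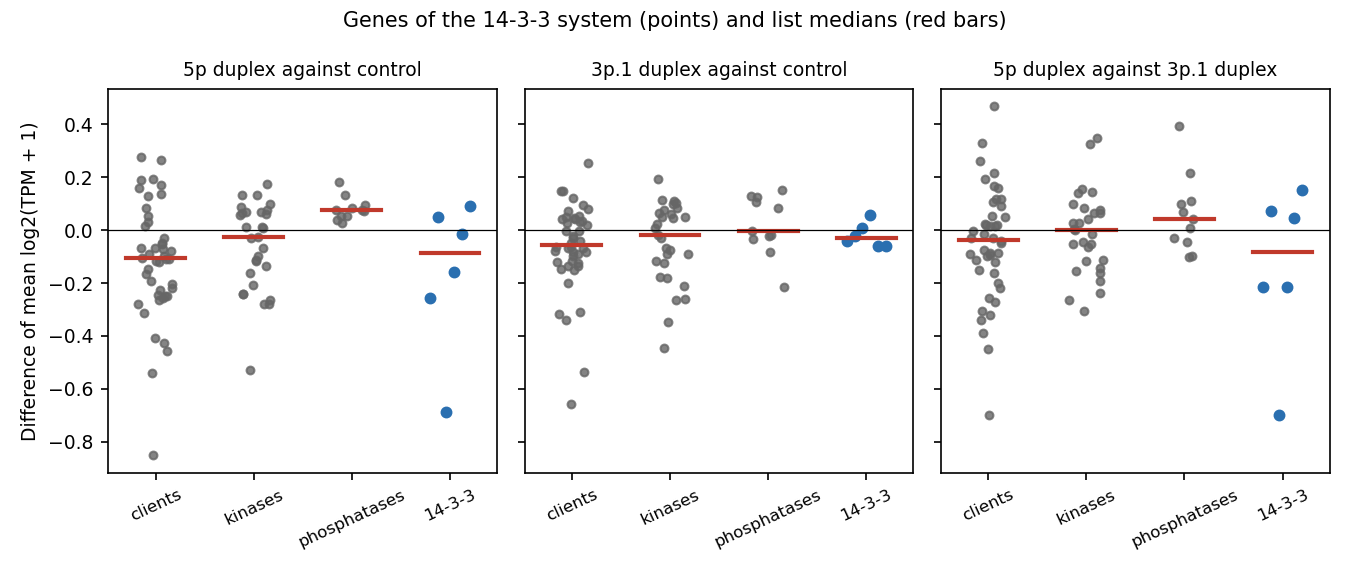
Differences of mean log2(TPM + 1) for each tested client, kinase and phosphatase gene and for the 6 members (points), with list medians as red bars, in the 3 comparisons. The lowest client with the 5p duplex is FOXO3 at -0.85, and the lowest member is YWHAG at -0.69.

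Some of these genes have near-identical copies. GENCODE 29 annotates 20 pseudogenes of the 6 members by symbol, of which 8 are of YWHAZ, 6 of YWHAE, 4 of YWHAQ, 2 of YWHAB and 0 of YWHAG or YWHAH. In the libraries YWHAEP1 was listed at 0.05 to 0.25 TPM and YWHAEP7 in 1 library at 0.02 TPM. How the authors' counting shared reads between a gene and its copies is not given in the sources used here, so the levels of YWHAZ, YWHAE, YWHAQ and YWHAB carry that uncertainty.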

How the data were processed

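Each library's deposited values are TPM (transcripts per 1000000), set beside a gene symbol, per the file headers. RSEM and GRCh38 are named per the submitters' processing notes; the aligner, annotation and versions were not given in the sources used here. All values summed to about 1000000 in each library and began at 0.01, so depth is unknown and neither a count test nor a counting interval was possible. Libraries listed 18660 to 19070 symbols. Symbols not listed were taken as 0, and 21 to 23 repeated symbols were summed. Log2(TPM + 1) of 13400 genes whose mean reached 1 TPM was fitted with group means in limma 3.58.1 (R 4.3.3, variance trend, 3 residual and 3.38 prior degrees of freedom), two-sided, tested on simulated data first. This scale understates changes of low genes. Adjusted p-values are Benjamini-Hochberg over all genes. An exact permutation test was not used, since 2 against 2 libraries cannot reach 0.05. Sites were searched with Python 3.11.15. The miRNA table matched 1 hairpin and 2 mature sequences.

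The members and lists were chosen with earlier results of these data known. Named genes were the 6 members, SFN, VDAC1, up to 4 genes per list and comparison by adjusted p, of which the text gives the first ones, and the 5 genes most like the member with the widest spread; some genes that this rule names are not reported here. Alternatives covered the pseudocount (0.1), filters (none, 5 TPM), scaling (quantile, upper quartile), no variance trend, only the groups compared, a term for replicate number, and leaving out each library.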

Additional observations from a re-analysis of the deposited data

How the results depend on the processing

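No member difference that was called changed direction in any of the 14 alternatives. For YWHAG the difference from control ran from -0.71 to -0.65 and was called in 4 of 14 alternatives (log2(TPM + 0.1), a minimum of 5 TPM, quantile normalization and the replicate block), and the difference between the duplexes ran from -0.72 to -0.67 and was called in 5 of 14, those 4 and upper-quartile scaling. YWHAB and YWHAH kept a negative sign in both 5p duplex comparisons in 14 of 14. For these 2 genes and YWHAG most alternatives could not turn the sign. Their 5p duplex libraries did not overlap the other groups, so neither leaving out a library nor the pseudocount could do so. Filters, variance trend, groups compared and the replicate block leave the difference itself unchanged. Only quantile or upper-quartile scaling could have turned it. The number of genes called moved far more. From 62 with the 5p duplex against control, 2 with the 3p.1 duplex against control and 58 between the duplexes, it went to 9, 0 and 5 with no filter on low values, and to 11, 18 and 19 with only the groups compared. Without a variance trend it was 33 with the 5p duplex against control and 5 between the duplexes. Leaving out 1 library gave 7 to 128, 5 to 94 and 7 to 26. The fit with no filter tests more genes, and those with fewer groups or libraries have fewer samples. With fewer samples the counts fell in some fits and rose in others. The cause of these differences between settings was not tested. Where a group was left with 1 library, that library was assumed to vary like the others. With the replicate block, a term for replicate number, 367, 30 and 278 genes were called. Same-numbered libraries deviated together (r = 0.265 to 0.383 across 13400 genes), but the labels tie the numbers to no batch. Clients called with the 5p duplex numbered 2 with the replicate block (FOXO3 and WEE1) and 1 with a minimum of 5 TPM, and between the duplexes 1 with the replicate block, in place of 0. No other list count changed. Depth is unknown, so no limit from depth can be given.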

Other observations

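Differences between the 2 libraries of a group had the same sign in all 3 groups for 3 members. YWHAQ was higher in replicate 1 by 0.0846 (control), 0.225 (5p duplex) and 0.169 (3p.1 duplex) in log2 units, and YWHAZ by 0.0943, 0.171 and 0.0831. YWHAH was lower in replicate 1, with differences of -0.115, -0.0757 and -0.123. For YWHAG, YWHAB and YWHAE the sign differed between groups. Same-numbered libraries deviated together over all 13400 genes as well, as given above. The share of all genes with the same sign in all 3 groups was not computed, so this is not shown to be particular to the members. The labels do not say what the replicate numbers stand for. The clients with a 7mer or 8mer for miR-324-5p in their longest 3′UTR numbered 11 of 44 (25%), beside 14.5% of all tested genes with a 3′UTR. Their median 5p duplex difference was -0.0802, against -0.116 for the clients without one. Over all tested genes the order was the other way. The median was -0.139 for genes with an 8mer and -0.0898 with a 7mer-m8 as their longest match, against -0.0235 for those with no 7mer or 8mer.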
